A study of Homo sapiens with 8 samples.

Results

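The elongation factor P-TEFb, the 7SK complex that holds it inactive and the scaffold and elongation proteins that work with it were followed through 10 genes, HEXIM1, HEXIM2, LARP7, MEPCE, CDK9, CCNT1, CCNT2, AFF1, AFF4 and ELL2. They were taken by gene symbol from a table of 19718 coding genes, and all 10 were found there. RNA sequencing libraries had been made from HEL92.1.7, an established human erythroleukaemia line that the labels class as secondary AML (acute myeloid leukaemia), and from HEL OTX P/R, a drug-resistant persister derivative of it. The drug, OTX015 or birabresib, is a BET inhibitor, which occupies the bromodomains of proteins that read acetylated chromatin. The 4 groups, each of 2 libraries, were P/R cells given 1000 nM OTX015 for 8 hours, untreated P/R cells, parental cells given 1000 nM OTX015 for 8 hours, and untreated parental cells. All groups grew in the same serum-containing medium, and the labels name no vehicle for the untreated cells. The labels do not say how the P/R cells were derived, whether they are 1 clone, or whether they were kept in the drug. The labels call the replicates biologic and the treatments independent.

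P-TEFb is a kinase, CDK9, paired with cyclin T1 or T2, and it releases RNA polymerase II from its pause near the promoter by phosphorylating the polymerase and the pausing factors NELF and DSIF. Much of it is kept inactive on 7SK, a small non-coding RNA that MEPCE caps and LARP7 binds, through the inhibitors HEXIM1 and HEXIM2. Active P-TEFb is brought to genes by, among others, the super elongation complex, in which AFF1 or AFF4 is the scaffold and ELL2 an elongation factor. HEXIM1 messenger RNA is widely used as a marker that a BET inhibitor has reached its target. The 7SK RNA is not a coding gene and was not analysed here.

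Values are FPKM, a level corrected for transcript length and library size, which the authors had quantile normalized, so every library has the same total of 678133 FPKM and its depth is unknown. Of the 19718 genes, 11255 entered the tests by having 1 FPKM or more in 2 or more libraries, and all 10 members were among them. Replicates correlated at r = 0.996 to 0.997 across genes and libraries of different groups at 0.959 to 0.985. The 11 erythroid and megakaryocytic markers were all at 1 FPKM or more in each group, with summed levels of 11396 to 12482 FPKM in treated P/R, 12728 to 12945 FPKM in untreated P/R, 12760 to 13631 FPKM in treated parental and 13612 to 13652 FPKM in untreated parental cells. Most of each sum is the fetal globin genes HBG1 and HBG2, and single markers differed between the groups. The platelet genes PF4 and GP9 averaged 43.6 and 125 FPKM in treated P/R, 48.9 and 260 FPKM in untreated P/R, 1.47 and 38.2 FPKM in treated parental and 2.33 and 107 FPKM in untreated parental cells. The transferrin receptor gene TFRC averaged 107, 102, 217 and 244 FPKM in the same groups in that order. The part of these differences in the results was not tested. Of 7 markers of other blood cells, only LYZ passed 1 FPKM, and MS4A1 and CD3D were at 0 throughout. All 5 epithelial or stromal markers stayed under 1 FPKM, with KRT19 and COL1A2 at 0. A change is given as the difference in log2(FPKM + 1), which understates the change of low genes, with its standard error (SE) and its limma p-value adjusted by Benjamini-Hochberg over all 11255 genes; a difference passed with an adjusted p under 0.05. Values marked ± are means and SD over 2 libraries. A change in every cell and a change in the share of cells expressing a gene cannot be told apart in such bulk RNA.

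The gene models differ widely. In the GENCODE 29 annotation of GRCh38, HEXIM1 is a gene of 1 exon spanning 3.6 kb on chromosome 17, with its paralog HEXIM2 next to it on the same strand. CDK9 on chromosome 9 spans 5.11 kb and MEPCE on chromosome 7 spans 5.34 kb. At the other end, AFF1 on chromosome 4 spans 206 kb, AFF4 and ELL2 on chromosome 5 span 88.3 and 77 kb, and the cyclin genes CCNT2 and CCNT1 span 41.1 and 28.5 kb. LARP7 overlaps the coding gene ZGRF1 on the opposite strand and MEPCE overlaps ZCWPW1. AFF1 overlaps the coding gene AC093827.5, and HEXIM1 and HEXIM2 overlap the antisense gene AC138150.1, also on the opposite strand. Some members overlap further non-coding genes. Levels of AC093827.5 and of the non-coding genes were not read out. Whether the libraries kept strand is not given, so reads in the shared parts cannot be assigned with certainty. ZGRF1 averaged 2.21 and 1.95 FPKM in treated P/R and parental cells, against 2.02 and 1.96 FPKM untreated, and ZCWPW1 1.56 and 1.78 FPKM treated, against 1.91 and 2.02 FPKM untreated. Neither passed in any comparison.

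Promoter windows, the 250 bases before a transcription start in RefSeq (GRCh38.p14, table of promoters), were found for 9 of the 10 genes, in 15 windows because some genes have several starts. The windows of HEXIM1, the gene that rose most under OTX015, of MEPCE and AFF1, which also rose in both lines, and of HEXIM2, the paralog that did not rise, are shown for comparison, each from the most upstream start. They lie at chr17:45148225-45148474 (plus strand), chr7:100428540-100428789 (plus), chr4:86934761-86935010 (plus) and chr17:45159924-45160173 (plus). Capitals mark matches on either strand to the TATA box TATAAA, the E-box CACGTG, the CCAAT box CCAAT and the GC box GGGCGG.
HEXIM1: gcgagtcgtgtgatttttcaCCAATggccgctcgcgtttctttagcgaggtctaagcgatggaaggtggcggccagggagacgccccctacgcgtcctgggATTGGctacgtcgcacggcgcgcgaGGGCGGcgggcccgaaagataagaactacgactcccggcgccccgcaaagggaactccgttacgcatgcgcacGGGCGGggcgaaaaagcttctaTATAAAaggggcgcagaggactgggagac
MEPCE: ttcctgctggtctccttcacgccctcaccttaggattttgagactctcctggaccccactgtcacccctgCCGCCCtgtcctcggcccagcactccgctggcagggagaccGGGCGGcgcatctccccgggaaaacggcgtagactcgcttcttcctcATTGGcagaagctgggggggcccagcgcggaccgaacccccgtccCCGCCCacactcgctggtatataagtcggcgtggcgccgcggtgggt
AFF1: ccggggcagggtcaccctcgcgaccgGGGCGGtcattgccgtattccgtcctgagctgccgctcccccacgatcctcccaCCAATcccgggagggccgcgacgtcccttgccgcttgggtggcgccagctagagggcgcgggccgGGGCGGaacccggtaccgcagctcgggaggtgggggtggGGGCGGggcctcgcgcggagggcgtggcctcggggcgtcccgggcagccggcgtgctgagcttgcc
HEXIM2: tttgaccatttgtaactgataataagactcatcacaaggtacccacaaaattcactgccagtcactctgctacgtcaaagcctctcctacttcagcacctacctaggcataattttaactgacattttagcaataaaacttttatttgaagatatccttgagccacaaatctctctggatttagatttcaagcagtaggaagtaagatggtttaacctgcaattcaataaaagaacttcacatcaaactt
The HEXIM1 window holds a TATA box that begins at position -29 from the start, with 2 CCAAT boxes and 2 GC boxes. It was the only 1 of the 15 member windows with TATAAA, a run of letters found in 10.7% of 35116 RefSeq windows of the same length, coding and non-coding. Only exact letters were searched, and the MEPCE window holds the similar run tatataag near its end, unmarked. MEPCE and AFF1 each hold 3 GC boxes and 1 CCAAT box, and the HEXIM2 window holds none of the 4 motifs. That HEXIM2 start lies upstream of the gene as annotated in GENCODE 29. The second HEXIM2 start, not printed, lies within the gene, and its window has 2 CCAAT boxes. Whether motifs bear on the response was not tested. Over all members, 10 of 15 windows had a GC box (42.6% of all windows), 8 a CCAAT box (32% of all) and 3 an E-box (6.34% of all). No 2 matches overlapped. The HEXIM1 window is 62.4% G and C, the printed HEXIM2 window 36% and the second HEXIM2 window 55.2%. The median over all windows is 58%.

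FPKM is per length, so levels can be set beside each other. In treated P/R cells the order was MEPCE (76.2 ± 2.45 FPKM), HEXIM1 (64.6 ± 0.468), CDK9 (62.1 ± 2.40), ELL2 (13.5 ± 0.709), LARP7 (10.2 ± 2.52), CCNT1 (8.84 ± 0.458), AFF1 (8.46 ± 0.801), CCNT2 (4.89 ± 0.163), AFF4 (4.59 ± 0.763) and HEXIM2 (3.39 ± 0.140). In untreated P/R cells MEPCE (59.9 ± 0.470 FPKM) and CDK9 (52.9 ± 0.0461) stood above HEXIM1 (23.1 ± 0.107) and LARP7 (14.6 ± 0.630), and AFF4 came last at 3.63 ± 0.146. Treated parental cells had HEXIM1 (87.9 ± 4.57 FPKM) in first place, overlapping with MEPCE (82.3 ± 4.23), then CDK9 at 54.5 ± 0.374 and with HEXIM2 last at 3.68 ± 0.960. Untreated parental cells had MEPCE (66.7 ± 0.260 FPKM), CDK9 (45.6 ± 3.42), HEXIM1 (26.6 ± 0.152) and LARP7 (13.7 ± 0.0228) in the first places and AFF4 (2.79 ± 0.536) in the last. HEXIM1, MEPCE and CDK9 were the 3 most abundant of the 10 transcripts in every group, and LARP7 came next in untreated cells of both lines. Among neighbours in the order, LARP7, CCNT1 and AFF1 overlapped in treated P/R cells, as did CCNT2 and AFF4. In parental cells the overlaps were CCNT1 with LARP7 and AFF4 with HEXIM2 under OTX015, and ELL2 with CCNT1 and AFF1 with CCNT2 untreated. The other neighbours did not overlap, although with 2 libraries per group this is a weak description of spread.

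**Figure D1:**
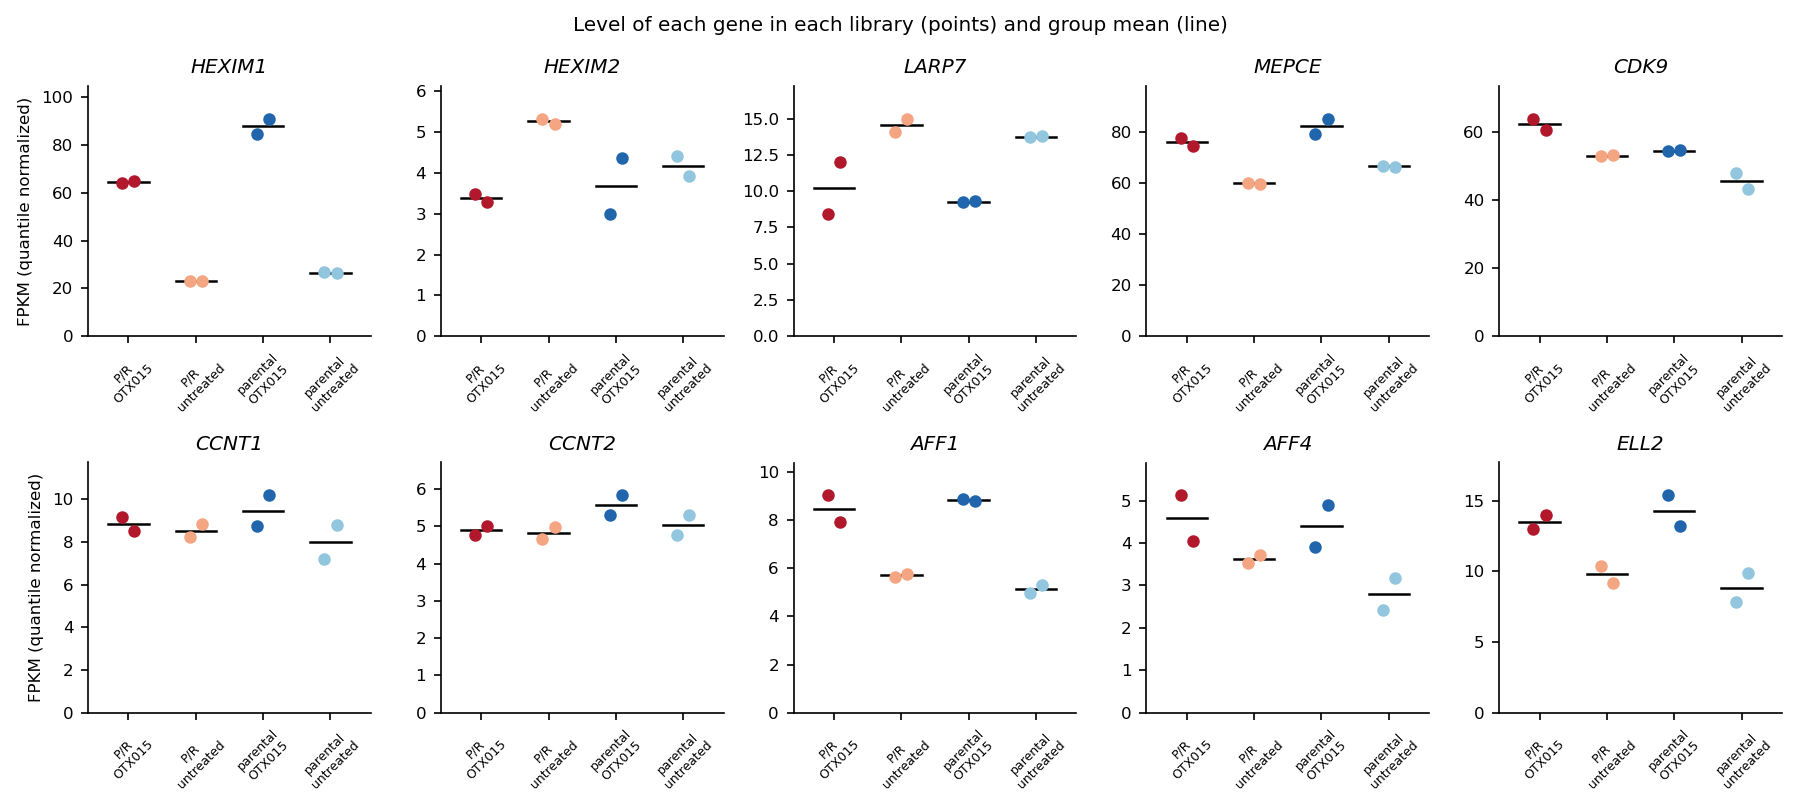
FPKM (vertical axis, from 0) of the 10 genes in each library (points) of treated and untreated P/R and parental cells, with the group mean as a line. HEXIM1 stood at 64.3 and 65.0 FPKM in treated P/R and 84.6 and 91.1 FPKM in treated parental cells, against 23.0 to 26.7 FPKM in the 4 untreated libraries, and LARP7 was lower in every treated library than in any untreated one.

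The first question was which genes of this machinery responded to 8 hours of OTX015. In P/R cells 5 of the 10 members rose and 2 fell. In parental cells 6 rose and 1 fell. HEXIM1, MEPCE, CDK9, AFF1 and ELL2 rose in both lines, AFF4 passed in parental cells, LARP7 fell in both lines and HEXIM2 fell in P/R cells, while the cyclin genes CCNT1 and CCNT2 passed in neither. The background is broad. Of all genes tested, 44.3% passed in P/R cells (22.5% higher and 21.8% lower) and 50.4% in parental cells (25.7% higher and 24.7% lower). The median log2 change of the members was 0.25 in P/R and 0.28 in parental cells, beside 0.015 and 0.021 for all genes. The P/R and the parental comparison share no library. With 2 libraries against 2 an exact two-sided permutation test cannot go below p = 0.333, so these p-values rest on the spread that limma shares among genes.

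HEXIM1, the main inhibitor of P-TEFb, was at 64.3 and 65.0 FPKM in treated P/R cells, against 23.2 and 23.0 FPKM in untreated P/R cells. In treated parental cells it was at 84.6 and 91.1 FPKM, against 26.7 and 26.5 FPKM in untreated parental cells. Every treated library lay far above every untreated one, and the 4 groups did not overlap. As a ratio of mean FPKM the rise was 2.80-fold in P/R cells (log2 difference 1.45, SE 0.05, adjusted p = 4.14e-07) and 3.30-fold in parental cells (1.69, SE 0.05, adjusted p = 1.54e-07). By size it was the 41st largest rise of 11255 genes in P/R cells and the 33rd in parental cells. Both calls held in all 16 other settings tried for each.

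HEXIM2, which can take the place of HEXIM1 in the 7SK complex, did not rise. It had 3.49 and 3.29 FPKM in treated P/R cells, against 5.33 and 5.20 FPKM in untreated P/R cells, and its fall passed (log2 difference -0.51, SE 0.14, adjusted p = 0.0138). In parental cells it read 3.00 and 4.36 FPKM treated, against 4.41 and 3.92 FPKM untreated. The treated parental libraries were far apart and straddled 1 of the untreated ones, and the difference did not pass (-0.16, 95% interval -0.46 to 0.15, adjusted p = 0.372). In P/R cells the call was lost without untreated replicate 1 (adjusted p = 0.0615), untreated replicate 2 (0.0507) or treated replicate 2 (0.0672), and without the filter on low values (0.0501), with a range of 0.00429 to 0.0672 over 15 settings. In parental cells leaving out treated replicate 1 turned the sign (0.06) and leaving out treated replicate 2 gave a pass (-0.37, adjusted p = 0.0479), in a range of 0.0479 to 0.747. As a share of the summed HEXIM1 and HEXIM2 level, HEXIM1 made up 94.8% and 95.2% in treated P/R cells, against 81.3% and 81.6% in untreated P/R cells, and 96.6% and 95.4% in treated parental cells, against 85.8% and 87.1% in untreated parental cells.

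Transcripts of the 2 proteins that stay on the 7SK RNA changed in opposite directions. LARP7, which binds the end of 7SK and protects it, had 8.45 and 12.0 FPKM in treated P/R cells, against 14.1 and 15 FPKM in untreated P/R cells, and 9.24 and 9.32 FPKM in treated parental cells, against 13.7 and 13.8 FPKM in untreated parental cells. All treated libraries were below all untreated ones, though treated P/R replicate 2 lay nearer to the untreated cells than its partner did. LARP7 fell by 0.49 on the log2 scale in P/R cells (SE 0.13, adjusted p = 0.0129) and by 0.52 in parental cells (SE 0.13, adjusted p = 0.00851). In P/R cells the call was lost without treated replicate 1 (log2 difference -0.26, adjusted p = 0.0511), without untreated replicate 2 (0.0686) and without the filter (0.0521), in a range of 0.000889 to 0.0686. In parental cells it held in all 16 settings.

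MEPCE, the enzyme that methylates the cap of 7SK, had 77.9 and 74.5 FPKM in treated P/R cells, against 60.2 and 59.6 FPKM in untreated P/R cells. It had 79.3 and 85.3 FPKM in treated parental cells, against 66.9 and 66.5 FPKM in untreated parental cells. Treated libraries were the higher ones in both lines, without overlap. The rise was small and even, with log2 differences of 0.34 (SE 0.05, adjusted p = 0.000739) in P/R and 0.30 (SE 0.05, adjusted p = 0.00127) in parental cells, and both calls held in all 16 settings. LARP7 per unit of MEPCE was 0.135 ± 0.0374 in treated and 0.244 ± 0.0124 in untreated P/R cells, and 0.113 ± 0.00507 in treated and 0.206 ± 0.00115 in untreated parental cells, as ratios of FPKM within a library.

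The kinase gene rose a little and its cyclin partners did not pass. CDK9 was at 63.8 and 60.4 FPKM in treated P/R cells, against 52.9 and 53.0 FPKM in untreated P/R cells, and at 54.2 and 54.7 FPKM in treated parental cells, against 48 and 43.2 FPKM in untreated parental cells. Treated and untreated libraries did not overlap in either line. The log2 differences were 0.23 (SE 0.06, adjusted p = 0.0141) in P/R and 0.25 (SE 0.06, adjusted p = 0.00711) in parental cells. The P/R call was lost without untreated replicate 1 (0.0659), untreated replicate 2 (0.0647) or treated replicate 1 (0.0795), in a range of 0.00868 to 0.0795, and the parental call without untreated replicate 2 (0.0535), in a range of 0.0046 to 0.0535.

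CCNT1, the gene of cyclin T1, had 9.16 and 8.51 FPKM in treated P/R cells, against 8.23 and 8.83 FPKM in untreated P/R cells, and 8.75 and 10.2 FPKM in treated parental cells, against 7.19 and 8.78 FPKM in untreated parental cells. Treated and untreated libraries overlapped in both lines. The 95% interval of the log2 difference was -0.21 to 0.30 in P/R and -0.03 to 0.48 in parental cells (adjusted p = 0.767 and 0.121). In parental cells it passed only without untreated replicate 2 (0.35, adjusted p = 0.0459), in a range of 0.0459 to 0.544. CCNT2, the gene of cyclin T2, had 4.78 and 5.01 FPKM in treated P/R cells, against 4.67 and 4.98 FPKM in untreated P/R cells, and 5.32 and 5.84 FPKM in treated parental cells, against 4.76 and 5.31 FPKM in untreated parental cells. The treated and untreated libraries overlapped in P/R cells and lay side by side without overlap in parental cells. Its intervals were -0.20 to 0.23 in P/R and -0.09 to 0.34 in parental cells (adjusted p = 0.904 and 0.308), and both include 0. CDK9 outnumbered the summed cyclin transcripts in every library, at ratios of 3.06 to 4.58.

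Among members that passed, the super elongation complex genes AFF1 and ELL2 had the largest rises after HEXIM1 in both lines. AFF1, the scaffold that is also a fusion partner of MLL (KMT2A) in leukaemia, had 9.03 and 7.90 FPKM in treated P/R cells, against 5.65 and 5.76 FPKM in untreated P/R cells, and 8.88 and 8.80 FPKM in treated parental cells, against 4.98 and 5.32 FPKM in untreated parental cells. All treated libraries exceeded all untreated ones. It rose by log2 differences of 0.50 (SE 0.09, adjusted p = 0.00213) in P/R and 0.68 (SE 0.09, adjusted p = 0.000285) in parental cells, calls that held in all 16 settings. AFF4, its paralog and the more widely used scaffold, had 5.13 and 4.05 FPKM in treated P/R cells, against 3.53 and 3.73 FPKM in untreated P/R cells, and 3.91 and 4.90 FPKM in treated parental cells, against 2.41 and 3.17 FPKM in untreated parental cells. Treated and untreated libraries of a line did not overlap, but replicates lay far apart. AFF4 passed in parental cells (0.51, SE 0.14, adjusted p = 0.0152) and not in P/R cells (0.27, 95% interval -0.06 to 0.59, adjusted p = 0.163). The parental call was lost without untreated replicate 1 (0.104), treated replicate 2 (0.112) or the filter (0.0542), in a range of 0.0138 to 0.112.

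ELL2, an elongation factor that raises the rate of polymerase II, had 13.0 and 14.0 FPKM in treated P/R cells, against 10.4 and 9.19 FPKM in untreated P/R cells, and 15.4 and 13.2 FPKM in treated parental cells, against 7.81 and 9.86 FPKM in untreated parental cells. Every treated library was above every untreated one. The rise was 1.38-fold in P/R cells (log2 difference 0.43, SE 0.12, adjusted p = 0.0162) and 1.62-fold in parental cells (0.64, SE 0.12, adjusted p = 0.00183). In P/R cells the call was lost without untreated replicate 2 (0.101), treated replicate 2 (0.0870) or the filter (0.0562), in a range of 0.00928 to 0.101, and in parental cells it held in all 16 settings. AFF1, ELL2 and AFF4 are also the longest of the 10 genes, and whether their length bears on the response was not tested.

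**Figure D2:**
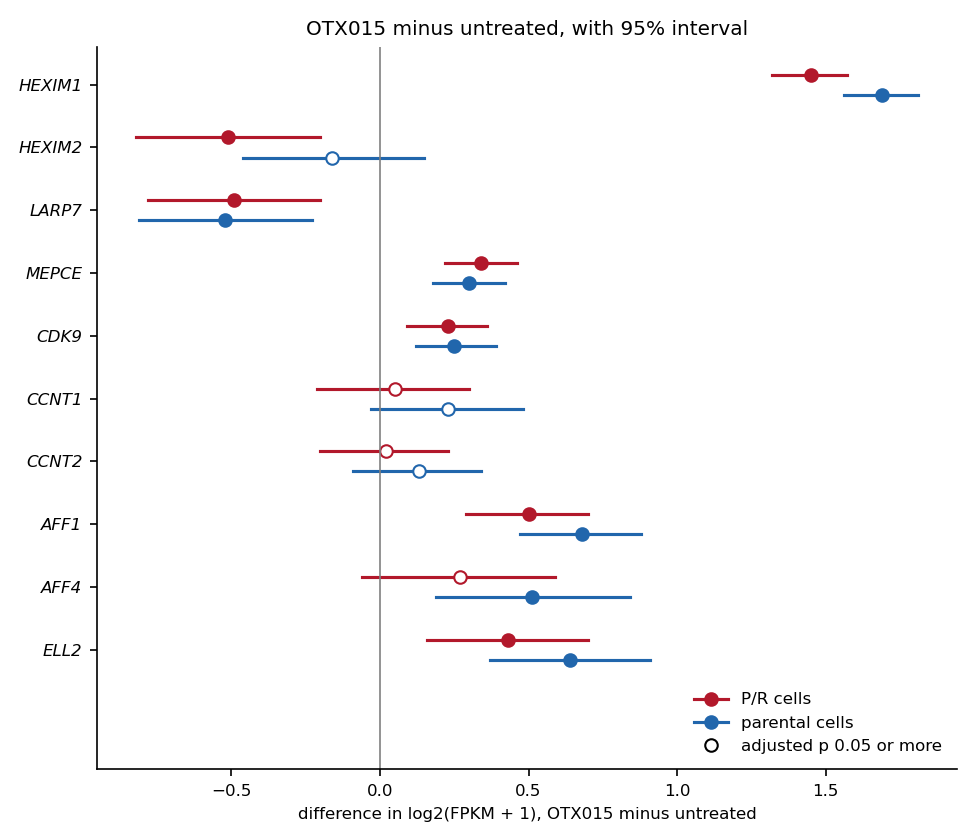
Difference in log2(FPKM + 1) between OTX015-treated and untreated cells (horizontal axis) for each gene, in P/R cells (red, upper) and parental cells (blue, lower), with 95% intervals from limma; open points have an adjusted p of 0.05 or more. HEXIM1 stands apart at 1.45 and 1.69, LARP7 lies at -0.49 and -0.52, and the intervals of CCNT1 and CCNT2 include 0.

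Whether the resistant line answered differently was tested as the difference between the 2 responses. None of the 10 members passed in limma, beside 9 of 11255 genes (0.0800%) that passed, 0.0622% higher and 0.0178% lower. At an unadjusted p under 0.05 there was 1 of 10 members, beside 5 of the 60 other elongation genes read for context below. All genes were not counted at that threshold. That member was HEXIM1, whose response in P/R minus parental cells was -0.24 on the log2 scale (95% interval -0.41 to -0.07, unadjusted p = 0.0122, adjusted p = 0.360). HEXIM2 (-0.36, interval -0.79 to 0.08) and AFF4 (-0.25, -0.70 to 0.21) had larger differences with wider intervals, followed by ELL2 (-0.21, -0.59 to 0.17), CCNT1 (-0.18, -0.53 to 0.18) and AFF1 (-0.18, -0.47 to 0.11). For LARP7, MEPCE and CDK9 the differences were 0.03, 0.04 and -0.03, and for CCNT2 -0.11. The median over the members was -0.18, beside 0.003 over all genes. No member passed in any of the settings tried, and the intervals do not show that the lines responded alike.

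The remaining comparisons ask how the resistant line differs from its parent at a given exposure. Under OTX015, 1 member passed in limma as lower in P/R cells and 0 as higher. Of all genes, 24.4% passed, 11.7% lower and 12.7% higher. At an unadjusted p under 0.05 there were 2 of 10 members, 1 of them higher, beside 15 of the 60 other elongation genes. All genes were not counted at that threshold. In untreated cells 1 member passed as higher and 1 as lower, beside 23.5% of all genes that passed, 11.7% higher and 11.9% lower. The members' counts are no larger than this background. These 2 comparisons share no library with each other, but each shares libraries with the responses above.

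HEXIM1 was the member that was lower in P/R cells in both. Under OTX015 the P/R libraries had 64.3 and 65.0 FPKM, against 84.6 and 91.1 FPKM in the parental ones, 73.6% of the parental mean (log2 difference -0.44, SE 0.05, adjusted p = 0.000391, a call kept in all 17 settings). In untreated cells P/R libraries had 23.2 and 23.0 FPKM, against 26.7 and 26.5 FPKM in parental libraries, 86.7% of the parental mean (-0.20, SE 0.05, adjusted p = 0.0283). The untreated call was lost without untreated P/R replicate 1 (0.114) or 2 (0.126) and without untreated parental replicate 1 (0.104) or 2 (0.0826), without the variance trend (0.0580) and in a fit of only these groups (0.0573), in a range of 0.0271 to 0.126 in which the difference itself stayed between -0.20 and -0.17.

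CDK9 ran the other way. Untreated P/R cells had 52.9 and 53.0 FPKM, against 48 and 43.2 FPKM in untreated parental cells (log2 difference 0.21, SE 0.06, adjusted p = 0.0325). Under OTX015 the P/R libraries had 63.8 and 60.4 FPKM, against 54.2 and 54.7 FPKM in parental cells (0.19, 95% interval 0.05 to 0.32, adjusted p = 0.0532). P/R libraries were the higher ones at both exposures, with no overlap. The untreated call was lost without untreated P/R replicate 1 (0.130) or 2 (0.129) or untreated parental replicate 2 (0.184), without the filter (0.0567), without the variance trend (0.0717) and in a fit of only these groups (0.0589), in a range of 0.0183 to 0.184. Under OTX015 a call was gained with a mean of at least 5 FPKM (0.0466), with a crossed replicate block (0.0343) and without untreated parental replicate 1 (0.0350) or 2 (0.0347), in a range of 0.0343 to 0.214.

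The other 8 members did not pass between the lines. MEPCE differed by -0.11 under OTX015 (95% interval -0.23 to 0.01, adjusted p = 0.166) and by -0.15 untreated (-0.27 to -0.04, adjusted p = 0.0635). Its P/R and parental libraries did not overlap at either exposure. Nor did those of HEXIM2, LARP7, AFF1 and AFF4 untreated and of CCNT2 under OTX015, and overlap was not counted over all genes. HEXIM2 differed by -0.08 under OTX015 (-0.38 to 0.23) and 0.28 untreated (-0.03 to 0.59). LARP7 differed by 0.11 under OTX015 (-0.18 to 0.40) and 0.08 untreated (-0.21 to 0.37), and its value under OTX015 rested on the spread treated P/R pair: without replicate 1 it was 0.34 (adjusted p = 0.0346) and without replicate 2 -0.12, in a range of adjusted p from 0.0346 to 0.738. AFF1, AFF4, ELL2, CCNT1 and CCNT2 differed by between -0.16 and 0.05 under OTX015 and between -0.05 and 0.29 untreated.

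**Figure D3:**
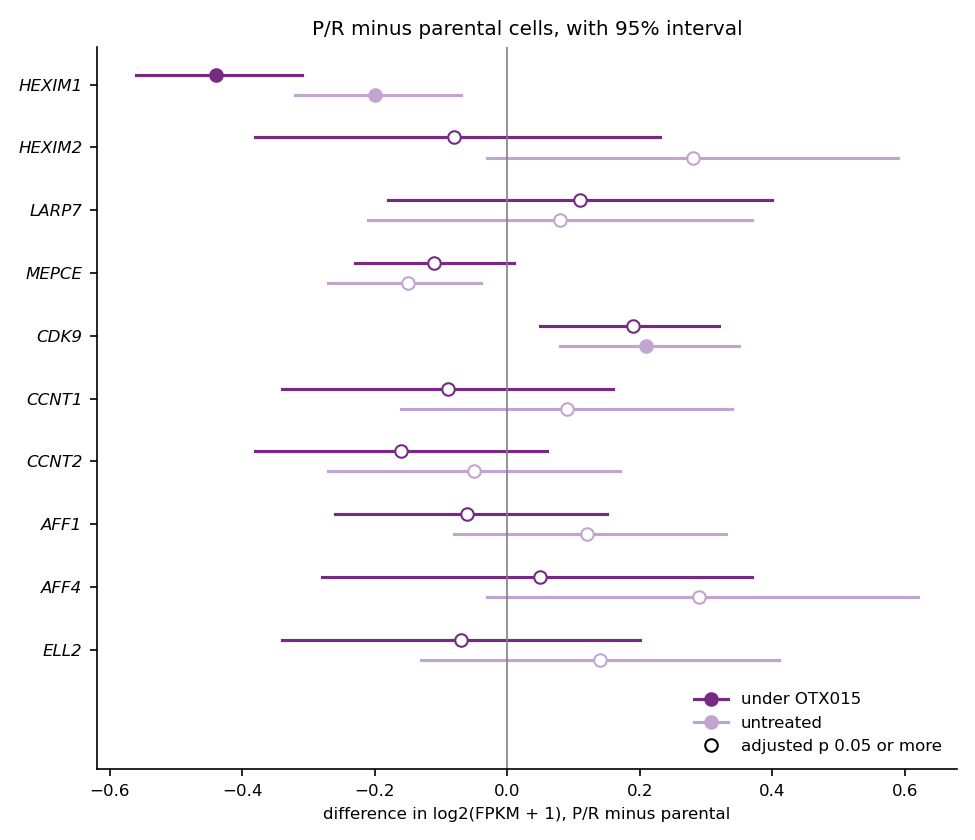
Difference in log2(FPKM + 1) between P/R and parental cells (horizontal axis) for each gene, under OTX015 (dark, upper) and untreated (pale, lower), with 95% intervals from limma; open points have an adjusted p of 0.05 or more. HEXIM1 is below 0 at -0.44 and -0.20, CDK9 is above 0 at 0.19 and 0.21, and most other intervals include 0.

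Set against each other within a library, the inhibitor transcript rose relative to that of the kinase under OTX015. HEXIM1 per unit of CDK9 was 1.01 and 1.08 in treated P/R cells, against 0.438 and 0.434 in untreated P/R cells, and 1.56 and 1.66 in treated parental cells, against 0.556 and 0.614 in untreated parental cells. HEXIM1 was thus the less abundant of the pair in all 4 untreated libraries and the more abundant in treated parental cells. In treated P/R cells the 2 were close to level. P/R cells had the lower ratio at both exposures. CDK9 per unit of summed CCNT1 and CCNT2 was 4.52 ± 0.0774 in treated and 3.97 ± 0.189 in untreated P/R cells, and 3.63 ± 0.318 in treated and 3.54 ± 0.675 in untreated parental cells, where the untreated pair alone ran from 3.06 to 4.02. AFF1 per unit of AFF4 was 1.85 ± 0.134 in treated and 1.57 ± 0.0421 in untreated P/R cells, and 2.03 ± 0.336 in treated and 1.87 ± 0.271 in untreated parental cells. CCNT1 per unit of CCNT2 lay between 1.51 and 1.92 in all libraries. These ratios of transcript levels are descriptions without a test and say nothing of protein.

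**Figure D4:**
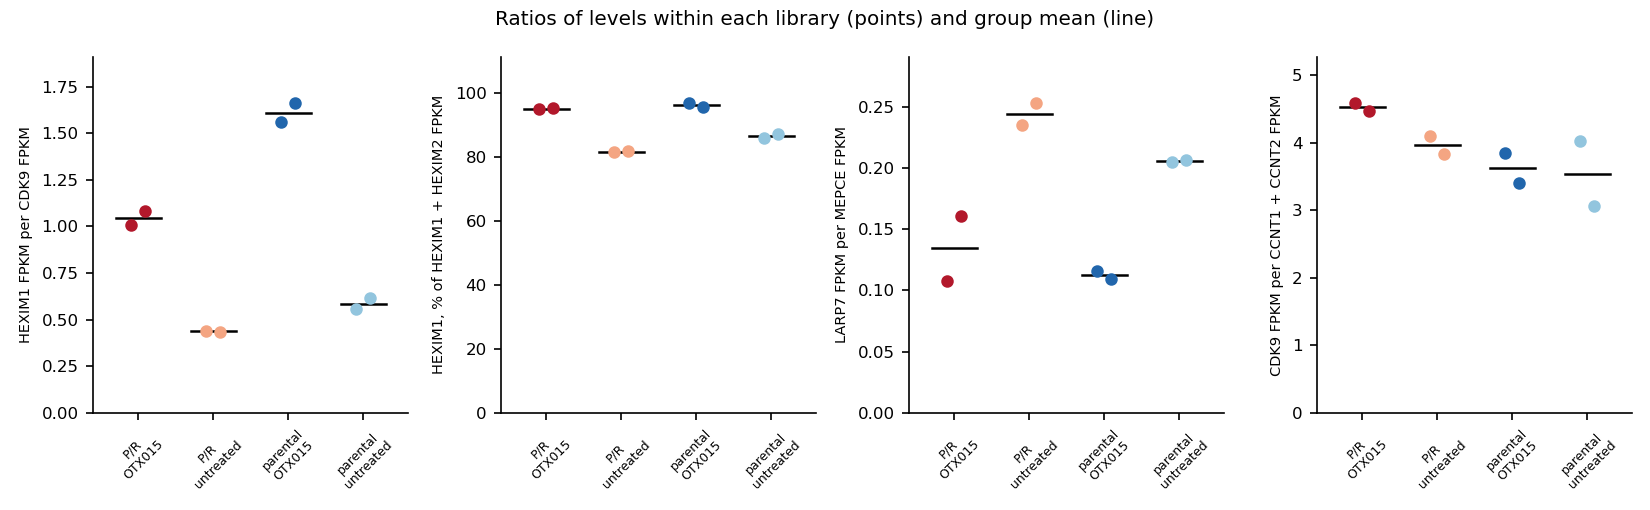
Ratios of FPKM within each library (points, group mean as a line) for HEXIM1 to CDK9, HEXIM1 as a percentage of HEXIM1 plus HEXIM2, LARP7 to MEPCE, and CDK9 to CCNT1 plus CCNT2, all axes from 0. HEXIM1 per CDK9 was 1.04 ± 0.0477 in treated P/R cells, against 0.436 ± 0.0024 in untreated P/R cells, and 1.61 ± 0.0727 in treated parental cells, against 0.585 ± 0.0405 in untreated parental cells.

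The genes nearest to HEXIM1 in pattern were sought over all 8 libraries, as the root mean square (RMS) difference in log2(FPKM + 1) after each gene's own mean was taken off. The 5 nearest were NEU1, a lysosomal sialidase, at 0.064, BAIAP2, an adaptor of the actin skeleton, at 0.076, DACT3, a WNT pathway regulator, at 0.096, DGAT1, an enzyme of triglyceride synthesis, at 0.128 and ACAP3, a regulator of ARF GTPases, at 0.138, beside a spread of HEXIM1 about its own mean of 0.801. NEU1 averaged 46.2 FPKM in treated and 16.6 FPKM in untreated P/R cells, and 67.0 FPKM in treated and 21.0 FPKM in untreated parental cells. These genes were picked for their likeness to HEXIM1 in the same libraries, so a shared order of group means is no separate result. DGAT1 went the other way between untreated lines, at 57.5 FPKM in P/R and 56.0 FPKM in parental cells. BAIAP2 averaged 20.1 and 7.32 FPKM in treated and untreated P/R cells, and 30.0 and 9.09 FPKM in treated and untreated parental cells. The genes nearest to LARP7 were ESF1 (0.058), a nucleolar factor, IL7 (0.072), a cytokine, THUMPD2 (0.073), an RNA methyltransferase, ABCE1 (0.076), a ribosome recycling factor, and SIRT5 (0.078), a mitochondrial deacylase, beside a spread of LARP7 of 0.283. ESF1 averaged 6.89 and 10.3 FPKM in treated and untreated P/R cells, and 6.28 and 10.1 FPKM in treated and untreated parental cells.

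The tested genes around HEXIM1 and CDK9, the members that passed between the lines, were read out in gene order. For HEXIM1, the 19 non-member genes within 10 places on either side had a median P/R minus parental difference of -0.00 under OTX015 and -0.02 untreated, against -0.44 and -0.20 for HEXIM1, and 10 of 19 were below 0 in each case. Within 20 places the 39 genes had medians of -0.15 under OTX015 and -0.14 untreated. Of these 39, 12 and 15 passed as lower in P/R cells, and 3 as higher at each exposure. Over all genes, 11.7% and 11.9% passed as lower and 12.7% and 11.7% as higher. The wider stretch of chromosome 17 thus had a median below 0 and the nearer one a median close to 0, and the part of this in the HEXIM1 result was not tested. For CDK9, at 0.19 under OTX015 and 0.21 untreated, the values depended on the window. The 10 genes within 5 places had medians of 0.19 under OTX015 and 0.01 untreated, and 3 passed as higher at each exposure. The 20 genes within 10 places had medians of 0.07 and -0.03, and 5 passed as higher at each exposure. The 40 genes within 20 places had medians of 0.03 and 0.02, and 9 passed as higher at each exposure, with 1 and 0 lower. Of all genes, 12.7% passed as higher under OTX015 and 11.7% untreated. In the response to OTX015, the 9 non-member genes within 5 places of HEXIM1 had medians of 0.36 in P/R and 0.34 in parental cells. Of these 9, 5 and 6 passed as higher, and 2 as lower in each line. The 19 genes within 10 places had medians of 0.12 and 0.20, and 5 and 8 passed as higher, with 3 lower in each line. Over all genes, 22.5% and 25.7% passed as higher and 21.8% and 24.7% as lower. The gene before HEXIM1, ACBD4, an acyl-CoA binding protein, averaged 3.96 ± 0.0481 and 3.48 ± 0.161 FPKM in treated P/R and parental cells, against 3.44 ± 0.439 and 2.55 ± 0.379 FPKM untreated, and its rise passed in parental cells (0.34, adjusted p = 0.0347) but not in P/R cells (0.16, adjusted p = 0.286). FMNL1, the formin gene on the other side of the HEXIM pair, fell in both lines, by 1.43 in P/R (adjusted p = 6.31e-06) and by 1.57 in parental cells (adjusted p = 2.43e-06) on the log2 scale. Opposite calls thus stood within a few genes of each other.

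Other genes of transcription elongation, 61 in 5 lists, were read for context, and 60 passed the filter on low values (AFF3 did not). In P/R cells 16 rose and 17 fell, beside 22.5% and 21.8% of all genes, and in parental cells 18 rose and 18 fell, beside 25.7% and 24.7%. The medians were -0.01 and -0.02, beside 0.015 and 0.021 for all genes and 0.25 and 0.28 for the members. The difference between the sets was not tested. The same shares of all genes are the background for the count of each list below, and no list was tested against them. When 1 library was left out, the P/R count of rises was smallest without untreated replicate 1 or 2 or treated replicate 2. The parental count was smallest without treated replicate 2. Such fits leave 1 library in a group, and in some of them fewer of all genes passed as well, so the shares above are not their background. Among the other members of the super and little elongation complexes, 0 of 10 rose and 1 fell in each line (limma). That 1 was EAF2, a partner of ELL proteins, at -0.36 in P/R (adjusted p = 0.0186) and -0.39 in parental cells (adjusted p = 0.0105). At an unadjusted p under 0.05 there were 2 of 10 in each line, and all genes were not counted at that threshold. The median change of this list was 0.04 in P/R and -0.00 in parental cells. ELL, the paralog of ELL2, had 11.8 ± 0.339 and 13.4 ± 0.466 FPKM in treated P/R and parental cells, against 10.5 ± 0.142 and 12.1 ± 0.439 FPKM untreated, and did not pass (0.16 and 0.14, adjusted p = 0.115 and 0.141).

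Of the 6 genes of the pausing factors NELF and DSIF, 2 rose and 1 fell in each line, with medians of 0.07 in P/R and -0.03 in parental cells. Both DSIF subunits rose, SUPT4H1 by 0.54 in P/R (adjusted p = 0.000469) and 0.28 in parental cells (0.0121), and SUPT5H, a substrate of CDK9, by 0.28 (0.00435) and 0.22 (0.0131). NELFCD fell by 0.47 in P/R (adjusted p = 0.000586) and by 0.48 in parental cells (0.000406). Of 15 PAF complex and chromatin elongation genes, 5 rose and 4 fell in P/R and 7 rose and 4 fell in parental cells, with medians of 0.13 and 0.17. The histone chaperone gene SUPT6H rose by 0.48 in P/R (adjusted p = 0.000233) and 0.52 in parental cells (0.000105), and its partner IWS1 fell by 0.34 (0.00388) and by 0.41 (0.00131). ELOB rose by 0.25 in P/R and 0.20 in parental cells, PAF1 by 0.24 and 0.22, and SETD2 by 0.21 and 0.38. RTF1 rose by 0.49 in parental cells and had 0.16 in P/R cells (adjusted p = 0.337). ELOC and SSRP1 fell by 0.26 and 0.20 in P/R and by 0.26 and 0.21 in parental cells.

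Among 14 genes of kinases and phosphatases that act on the tail of polymerase II, 6 rose and 4 fell in P/R and 7 rose and 4 fell in parental cells, with medians of 0.15 and 0.21. The phosphatase gene CTDSP2 rose most, by 0.52 in P/R (adjusted p = 0.000275) and 0.67 in parental cells (4.44e-05). In the TFIIH kinase, CDK7 rose by 0.64 in parental cells (adjusted p = 0.000751) and had 0.23 in P/R cells (0.0897), while its cyclin CCNH fell, by 0.52 in P/R (0.000787) and by 0.58 in parental cells (0.000338). RPAP2 rose by 0.43 and 0.46 in P/R and parental cells, CDK12 by 0.31 and 0.28, and SSU72 and CTDSPL fell by 0.34 and 0.44 in P/R and by 0.44 and 0.43 in parental cells.

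The 15 genes of proteins that bind 7SK or release P-TEFb from it included more falls than rises. There were 3 rises and 7 falls in P/R and 2 rises and 8 falls in parental cells (medians -0.07 and -0.13). Of all genes, 22.5% rose and 21.8% fell in P/R cells, and 25.7% rose and 24.7% fell in parental cells. JMJD6, a nuclear dioxygenase, fell by 0.52 in P/R (adjusted p = 0.000269) and by 0.71 in parental cells (3.42e-05). DDX21, an RNA helicase that frees P-TEFb, fell by 0.55 (0.000125) and by 0.53 (0.000103), and HNRNPA2B1, of the proteins that take up free 7SK, by 0.40 (5.49e-05) and by 0.47 (1.57e-05). The phosphatase gene PPP1CA rose by 0.34 in P/R (adjusted p = 0.000266) and 0.19 in parental cells (0.00524), and TRIM28 by 0.25 in P/R cells (0.0326), with 0.07 in parental cells (0.516).

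**Figure D5:**
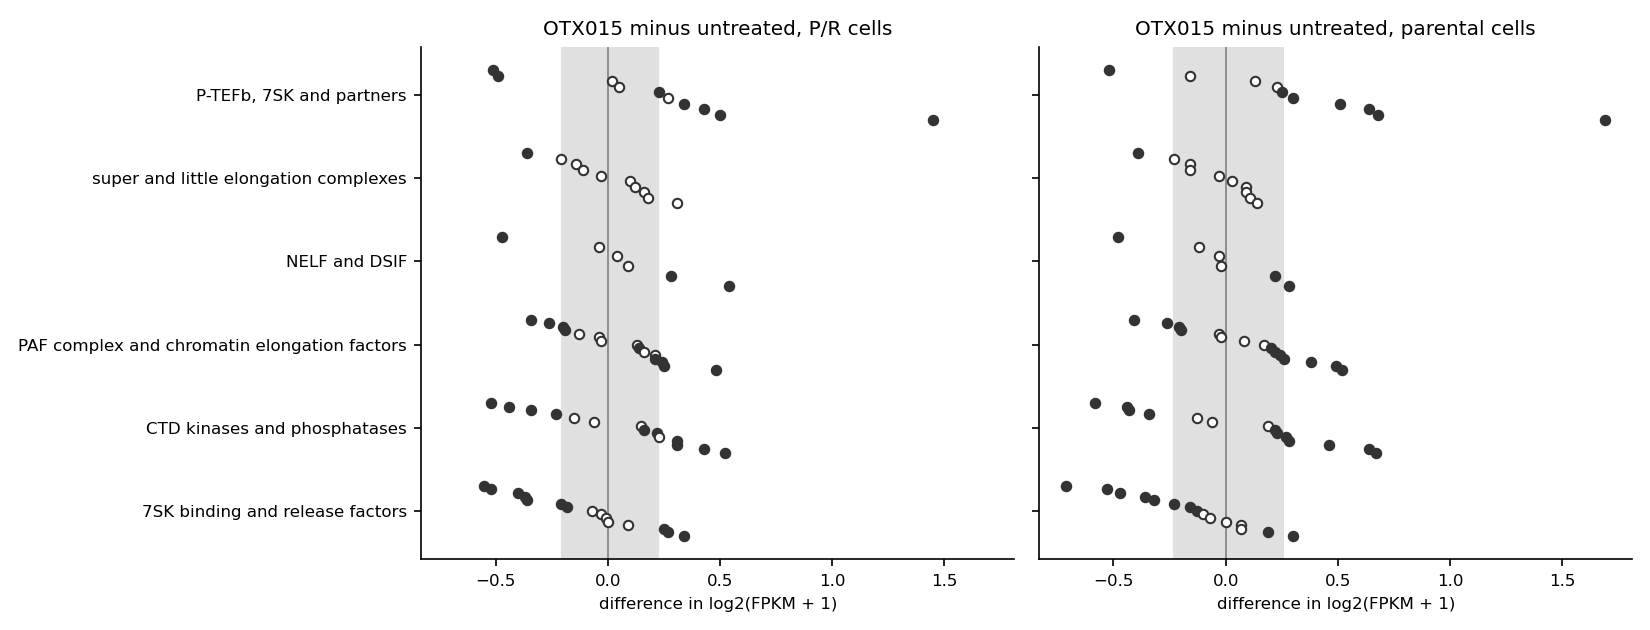
Difference in log2(FPKM + 1) between OTX015-treated and untreated cells (horizontal axis) for the 10 members (top row) and the tested genes of 5 other elongation lists, in P/R cells (left) and parental cells (right); each point is a gene, filled where the adjusted p is under 0.05, and the grey band is the middle 50% of all 11255 genes. Open points have an adjusted p of 0.05 or more. HEXIM1 is the point at 1.45 and 1.69, and the genes of the other lists lie between -0.71 and 0.67.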

How the data were processed

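A single table, deposited by the authors, covers 19718 coding genes in 8 libraries and names no unit. Its values were taken to be FPKM because they are never negative and not whole, and because TopHat2 2.0, Cufflinks 2.0 and the build hg19 are named per the submitters' processing notes. The sources used here do not give the annotation, settings or strandedness. The authors' FPKM are quantile normalized: at a mean of 1 FPKM or more, sorted values of the libraries differ by at most 0.136%. A global change in RNA content is thereby removed, counts cannot be recovered and no counting error can be given.

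Genes with at least 1 FPKM in at least 2 libraries (11255) were transformed to log2(FPKM + 1) and fitted in limma 3.58.1 (R 4.3.3; 4 group means, eBayes with a variance trend, 4 residual and 5.23 prior degrees of freedom). Tests are two-sided, adjusted by Benjamini-Hochberg over all genes. The fit was also run on simulated data with changes planted in a part of the genes. Those data had independent noise and no quantile normalization, so that run is no check of the calls reported here. Other settings tried were a replicate block, median centring of each library, leaving out each library, eBayes without its trend, fitting the compared groups alone, another filter (none, or a mean of 5 FPKM) and a pseudocount of 0.1 or 5. The members, lists and alternatives were chosen with earlier results of these data known. Named genes are the members, up to 3 rises and 3 falls that passed per list, the 5 genes nearest in pattern to HEXIM1 and to LARP7, and the tested neighbour on each side of HEXIM1; ELL was named after its values were seen, and 1 gene that the rule names is not reported here. Neighbours follow the gene order of GENCODE 29 (GRCh38), which is not the table's build, so the only coordinates printed are those of RefSeq promoter windows on GRCh38.p14.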

Additional observations from a re-analysis of the deposited data

How the results depend on the processing

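The calls of HEXIM1, MEPCE and AFF1 under OTX015, in both lines, and of HEXIM1 between the lines under OTX015, held in every setting tried, as did those of LARP7 and ELL2 under OTX015 in parental cells. Calls lost in some settings were HEXIM2, LARP7, CDK9 and ELL2 under OTX015 in P/R cells, CDK9 and AFF4 in parental cells, and HEXIM1 and CDK9 between untreated lines. Where a lone sample was left, its group was assumed to vary like the others. Members called lower by OTX015 in P/R cells were 0 without the filter on low values and 1 with a mean of at least 5 FPKM, under which only 8 members were tested. Between untreated lines the member called higher was lost (0) without the filter, without the variance trend and in a fit of only the groups compared, and the member called lower (0) in the last 2 of these. Under OTX015, 1 member was called higher in P/R cells with a mean of at least 5 FPKM. Elongation list genes lower in untreated P/R cells were 3 without the filter or the variance trend. For the difference in response, all genes called higher and lower were 3 and 1 with a pseudocount of 0.1, 18 and 11 with 5, 3 and 0 without the trend, and 2 higher without the filter. The cause was not tested.

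With a replicate block the difference in response called 1 gene higher and 1 lower, and no call of a member changed. Same-numbered libraries deviated together at r from -0.12 to 0.10 across genes, which does not settle whether they were prepared together. The treated groups gave the -0.12, and a crossed replicate block, chosen after seeing the data, called 1 member (CDK9) higher and 7 elongation list genes lower in P/R cells.

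Leaving out 1 library at a time leaves a group with 1 library, and fewer of all genes passed in some of these fits. In some of them fewer members were called higher by OTX015 in either line and fewer lower in P/R cells. HEXIM2 was called lower in parental cells without treated replicate 2. Between untreated lines the members called were lost in some fits. Under OTX015, CDK9 or LARP7 was called higher in P/R cells in others. All genes higher and lower in untreated P/R cells ranged from 827 to 1317 and 787 to 1371, lower under OTX015 from 779 to 1262, and for the difference in response from 1 to 6 higher and 1 to 2 lower (1 to 4 higher without any library other than treated P/R replicate 2). Elongation list genes ranged from 8 to 13 higher in P/R and 11 to 18 in parental cells under OTX015, and those lower in P/R cells from 3 to 5 untreated (3 without either untreated P/R library) and 2 to 4 under OTX015 (2 without treated parental replicate 1). The untreated counts of all genes were 827 and 787 without untreated P/R replicate 1 and 865 and 824 without replicate 2, and 830 were lower without untreated parental replicate 1. Under OTX015, 779 were lower without treated parental replicate 1 and 869 without replicate 2. Directions changed only for differences that had not passed. Their log2 ranges were -0.37 to 0.06 for HEXIM2 under OTX015 in parental cells, and -0.00 to 0.09 for CCNT1 and -0.02 to 0.06 for CCNT2 in P/R cells. Between untreated lines they were -0.04 to 0.22 for CCNT1, -0.12 to 0.02 for CCNT2 and -0.01 to 0.29 for ELL2. Between lines under OTX015 they were -0.29 to 0.14 for HEXIM2, -0.12 to 0.34 for LARP7, -0.19 to 0.01 for CCNT1, -0.15 to 0.03 for AFF1, -0.09 to 0.19 for AFF4 and -0.18 to 0.03 for ELL2. For the difference in response they were -0.20 to 0.26 for LARP7, -0.01 to 0.09 for MEPCE and -0.10 to 0.05 for CDK9.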
